A study of Mus musculus with 76 samples.

Results

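Myl4, Myl7, Sln, Bmp10, Dkk3 and Nppa are 6 genes that mouse atria are known to express strongly, and they were followed here across 76 libraries of right ventricular tissue. They were taken from the 56941 rows of the count matrix by their Ensembl identifiers, and each symbol had a single row. RNA sequencing was done on C57Bl/6J mice, by the labels 1 mouse per library, of a normal diet (ND) or a Western diet (WD) group. Per the study, WD was fed for a limited period and replaced by normal chow before any collection. WD therefore names an earlier diet throughout. The design asks what diet does in each sex, and the labels add irradiated mice, all on ND, that were given 50 cGy of a field labelled Mix or 100 cGy of a field labelled Gamma.

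The groups were 10 male ND sham, 10 male WD sham, 8 male ND mix, 10 male ND gamma, 9 female ND sham, 10 female WD sham, 10 female ND mix and 8 female ND gamma libraries. Sham mice had 0 cGy. Per the study's sample table, they were collected at 530 d, or at 750 d in males and 640 d in females, while the irradiated mice had no collection age in the sources used here. Female library F16 carried the Gamma field with a dose of 0 cGy and entered no group, which left 75 libraries in the comparisons. Where one group had fewer reads of a gene than another, fewer cells of a type and less RNA per cell cannot be told apart in bulk tissue.

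Total counts ran from 11426111 to 22009351 per library (median 15296390), so that 3 counts, used here as the floor of detection, equalled 0.136 to 0.263 CPM (counts scaled to a common library size). Ventricular genes were present throughout: Myl2, the ventricular regulatory light chain, ran from 3750 to 21205 CPM, and Irx4, a transcription factor of ventricular muscle, from 11.8 to 65.2 CPM. RNA integrity numbers (RIN) differed between groups and are given beside some of the results they move with. In 21 of 2850 library pairs the counts differed by little more than sampling noise (mean chi-square per gene 1.69 to 3.3, against 5.66 for the next pair and a median of 105), and these pairs joined 24 libraries into 10 sets. In 1 set the labels conflict: M21, a male ND mix library, was near-identical to M12 to M15, all male WD sham. Whether the libraries of a set come from separate mice, as labelled, is not known. Values counting each set once (62 columns) and without M21 are therefore given where they change a call.

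In an adult heart the atria and ventricles use different versions of the same contractile parts. Myl4 and Myl7 encode the essential and regulatory myosin light chains of atrial muscle. Sln encodes sarcolipin, a small membrane peptide that inhibits the calcium pump SERCA and is found in atrial muscle. Bmp10 encodes a BMP ligand made mainly by right atrial muscle that acts through the endothelial receptor Acvrl1. Dkk3 encodes a secreted Dickkopf family protein. Nppa encodes atrial natriuretic peptide, made constantly by atria and switched on again, with its neighbour Nppb, in loaded or injured ventricles.

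All 6 members varied over the 75 libraries far more than the usual gene. Myl4 (ENSMUSG00000061086, GRCm39 chr11:104440903-104486603, plus strand) ran from 2.36 CPM in male gamma library M36 to 7213 CPM in male ND sham library M26, a 3061-fold range with a median of 88 CPM. Myl7 (ENSMUSG00000020469, chr11:5845449-5848792, minus strand) ran from 1 count (0.0763 CPM) in female ND sham library F8 to 54017 counts (3060 CPM) in male WD sham library M31, with a median of 47.4 CPM. Sln (ENSMUSG00000042045, chr9:53742537-53761846, plus strand) ran from 0 counts to 1503 CPM in M26, at least 6488-fold against a floor of 3 counts in a library. It was at 0 counts in 3 libraries and at or under 3 counts in 19. So Myl7 and Sln went from near absence to high levels within tissue that carried the same label, while Myl4 never fell under 2.36 CPM.

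Bmp10 (ENSMUSG00000030046, chr6:87405969-87415616, plus strand) had a median of 1.21 CPM, was under 1 CPM in 35 libraries and at 0 counts in 5, and reached 1125 CPM in M31, at least 4284-fold above the floor. Dkk3 (ENSMUSG00000030772, chr7:111712904-111758760, minus strand) never fell under 2.42 CPM and reached 932 CPM in M26, a 385-fold range and the narrowest of the 6. Nppa (ENSMUSG00000041616, chr4:148085091-148086583, plus strand) ran from 1 count (0.0631 CPM) in female mix library F21 to 479 CPM in male ND sham library M27, with a median of 3.8 CPM. The SD of log2 CPM was 4.20 for Myl7, 4.09 for Sln, 3.53 for Bmp10, 3.27 for Myl4, 2.95 for Nppa and 1.96 for Dkk3, against a median of 0.46 over the 16345 genes tested. By this SD the members ranked 4, 5, 6, 8, 11 and 21 among those genes. The 8 groups accounted for 28.1% to 33.2% of each member's variance, so most of it lay between mice of 1 group. Myl4, Nppa and Bmp10 overlap genes of the opposite strand, and whether counting used strand is not given in the sources used here. Per the study, reads were counted only over the 500 bases at each gene's 3′ end. For Myl4 these are Cdc27, a subunit of the anaphase-promoting complex, with 111 to 449 counts per library (median 258), and 4 gene models with at most 23 counts. All of them end at or before base 104462383, outside the last 500 bases of Myl4. For Nppa it is Gm13054, with 0 to 187 counts, and for Bmp10 Gm66434, which has no row. Both span the 3′ end of the member.

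**Figure D1:**
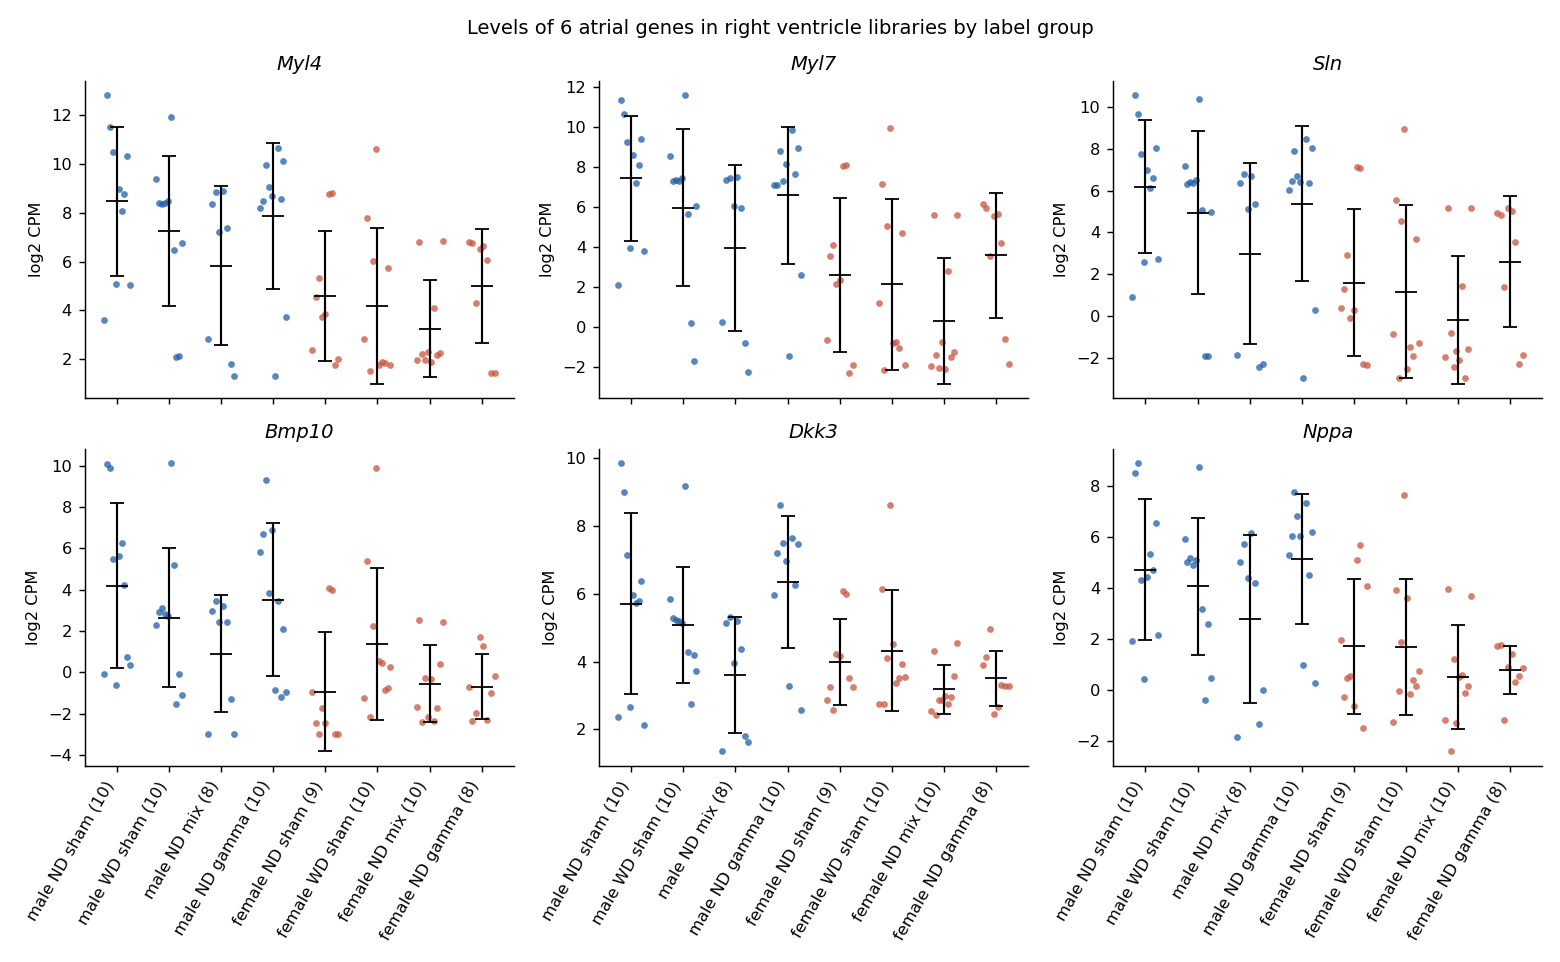
Level of each of the 6 genes (log2 CPM, vertical axis) in the 8 label groups (horizontal axis). Each point is a library and each bar is the group's mean ± SD. Within nearly every group the points of Myl7 and Sln spread over several log2 units, and the groups overlap.

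Male groups had higher medians than female groups for Myl7. The median in male ND sham mice was 335 CPM (4.21 to 2632, n = 10), in male WD sham mice 158 CPM (0.181 to 3060, n = 10), in male gamma mice 178 CPM (0.242 to 915, n = 10) and in male mix mice 64 CPM (0.0791 to 183, n = 8). In females it was 4.92 CPM for ND sham (0.0763 to 277, n = 9), 1.33 CPM for WD sham (0.0937 to 1000, n = 10), 32.8 CPM for gamma (0.154 to 71.8, n = 8) and 0.269 CPM for mix (0.105 to 48.2, n = 10). The ranges of all 8 groups overlapped, and each group held libraries with little Myl7.

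Bmp10 had a median of 31.6 CPM in male ND sham mice (0.521 to 1100), 6.71 CPM in male WD sham mice (0.215 to 1125), 12.4 CPM in male gamma mice (0.312 to 641) and 5.29 CPM in male mix mice (0 to 10.7). In females the median was 0.058 CPM for ND sham, 1.15 CPM for WD sham, 0.431 CPM for gamma and 0.435 CPM for mix, with 6 of 9, 1 of 10, 3 of 8 and 4 of 10 libraries at or under 3 counts. A single female library, F15 of the WD group at 530 d, reached 941 CPM. The next highest of the grouped female libraries, F12 of the same diet group and age, had 42.2 CPM. Nppa had medians of 24 CPM in male ND sham, 31.2 CPM in male WD sham, 66 CPM in male gamma and 19.8 CPM in male mix mice, and of 1.34, 1.38, 1.71 and 1.15 CPM in the female ND sham, WD sham, gamma and mix groups. Nppa was tightest in female gamma mice, from 0.319 to 3.29 CPM, where Myl7 ran from 0.154 to 71.8 CPM.

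Across libraries, Myl4, Myl7 and Sln rose and fell almost as 1 measurement. The correlation of log2 CPM over the 75 libraries was r = 0.986 for Myl4 with Myl7 (Spearman rho 0.976), r = 0.989 for Myl4 with Sln (rho 0.980) and r = 0.987 for Myl7 with Sln (rho 0.972). Within the 8 groups, r among these 3 genes was never under 0.959. The other 12 pairs were looser, from r = 0.758 for Myl7 with Bmp10 (rho 0.754) to r = 0.884 for Dkk3 with Nppa (rho 0.832), and Myl7 with Nppa had r = 0.815 (rho 0.820). All 15 pairs had a permutation p and a Benjamini-Hochberg adjusted p of 1e-05, the smallest that 100000 resamples can give. Leaving out the 2 libraries farthest from the median of the x gene gave r from 0.746 to 0.989, counting near-identical libraries once 0.769 to 0.989, and removing the group means 0.714 to 0.987. Males gave 0.766 to 0.992 and females 0.603 to 0.986.

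The members fell into a tight trio and 3 that departed from it by different amounts. With the mean of the other 5 members, Myl4 had r = 0.961, Sln 0.940, Myl7 0.926, Nppa 0.903, Dkk3 0.887 and Bmp10 0.850, so Bmp10 departed most and Nppa was closer to the rest than Bmp10 or Dkk3. The order was not tested. In female gamma mice (n = 8) the looser relations were weaker or of the other sign, which was not tested: r was 0.067 for Myl7 with Bmp10, 0.309 for Bmp10 with Nppa, 0.315 for Myl7, 0.386 for Myl4 and 0.422 for Sln with Nppa, -0.773 for Bmp10 with Dkk3 and -0.437 for Dkk3 with Nppa, while the trio held. F17 and F18, and F36 and F37, are near-identical pairs within this group. Bmp10 in that group was between 0.07 and 3.13 CPM, a range of 1 to 56 counts.

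**Figure D2:**
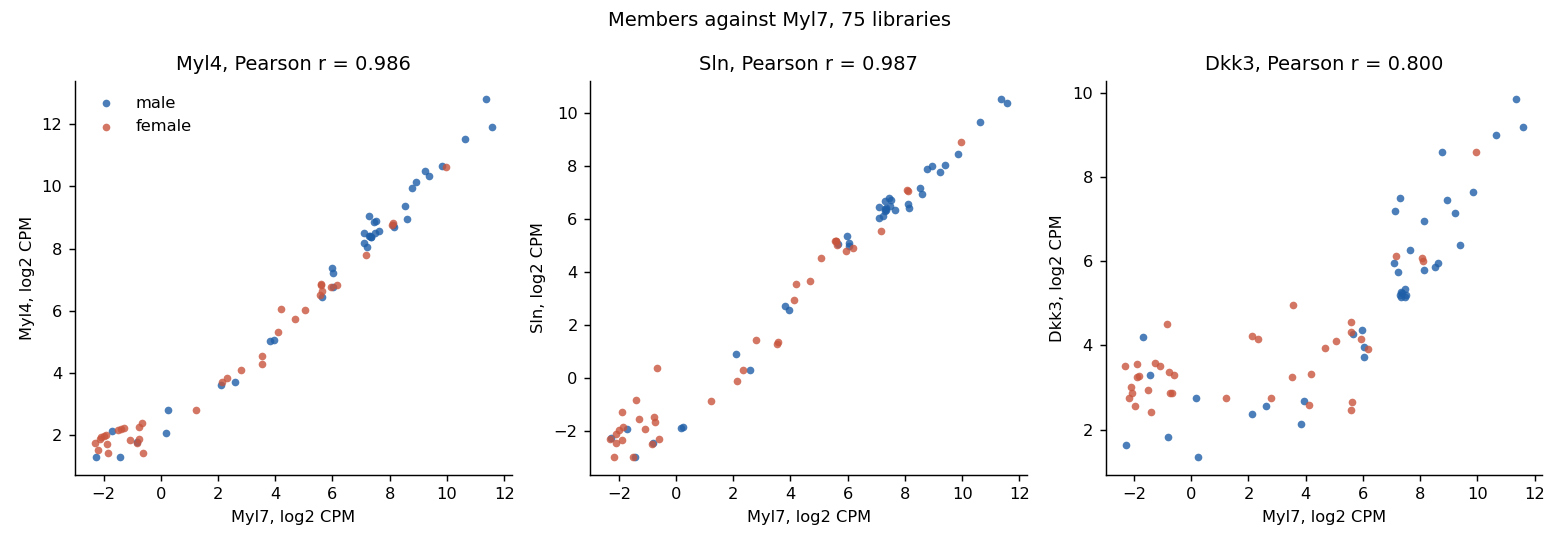
Myl4, Sln and Dkk3 (log2 CPM, vertical axes) against Myl7 (log2 CPM, horizontal axis) in 75 libraries coloured by sex. Myl4 and Sln lie along a line (r = 0.986 and 0.987), and Dkk3 is flat at low Myl7 and rises at high Myl7 (r = 0.800).

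The stretches before 3 of the genes are shown because Myl7 belongs to the tight trio while Bmp10 and Nppa depart from it. They were taken from RefSeq promoters (table build GRCm38.p6), matched to GRCm39 by sequence and trimmed to end before the GENCODE gene. Each is written 5′ to 3′ on the gene's strand, with motif matches in capitals: Myl7 at chr11:5848793-5849032 (minus), Bmp10 at chr6:87405726-87405968 (plus) and Nppa at chr4:148084929-148085090 (plus).
Myl7: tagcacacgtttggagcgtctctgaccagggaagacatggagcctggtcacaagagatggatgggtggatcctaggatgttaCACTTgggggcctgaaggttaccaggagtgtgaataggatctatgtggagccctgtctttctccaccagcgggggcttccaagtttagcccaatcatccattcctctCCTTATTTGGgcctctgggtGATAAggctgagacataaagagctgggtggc
Bmp10: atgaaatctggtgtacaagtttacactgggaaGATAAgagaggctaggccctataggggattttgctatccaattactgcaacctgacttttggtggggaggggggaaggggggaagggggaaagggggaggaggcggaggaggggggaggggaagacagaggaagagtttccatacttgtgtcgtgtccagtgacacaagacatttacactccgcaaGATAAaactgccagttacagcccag
Nppa: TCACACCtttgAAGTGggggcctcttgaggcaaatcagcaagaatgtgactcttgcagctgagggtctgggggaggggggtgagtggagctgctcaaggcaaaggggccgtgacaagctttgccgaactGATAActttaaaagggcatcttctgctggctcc
All 3 windows hold the GATA core GATAA, at -41 in Myl7, at -218 and -32 in Bmp10 and at -121 in Nppa, counted from the RefSeq start. Myl7 and Nppa also hold the NKX2-5 core AAGTG, at -168 on the reverse strand and at -239. Myl7 alone of the 3 holds an SRF box (CC, 6 bases of A or T, GG), from -61 to -52, and Nppa a T-box core (GGTGTGA) on the reverse strand at -250. Both strands were searched in each window. Trimming took 88 bases off the Nppa window, with a GATA core on the reverse strand at -75, an NKX2-5 core at -65 and TATAAA at -9. Over 32851 promoters, untrimmed at 250 bases, 22.6% hold GATAA, 40.7% AAGTG, 1.47% an SRF box, 3.33% GGTGTGA, 0.508% a MEF2 box and 12.4% TATAAA. These matches describe the letters only. The Myl4 window lies inside its gene and is not printed.

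Within groups, per log2 unit of Myl7, Sln rose by 1.06 ± 0.02 log2 units (slope ± SE), Bmp10 by 0.88 ± 0.07, Myl4 by 0.78 ± 0.02, Nppa by 0.50 ± 0.05 and Dkk3 by 0.37 ± 0.03. All 5 passed edgeR's quasi-likelihood test (adjusted p from 1.95e-52 to 8.37e-14), where 11.3% of all genes tested did. Of 13 other genes known from atrial muscle, 9 rose and 1 fell with Myl7. Mybphl, a myosin-binding protein of atrial muscle and conduction tissue, rose by 0.94 per unit, the muscle kinases Sbk3 and Sbk2 by 0.44 and 0.27, and the calcium channel subunit Cacna2d2 by 0.34. The potassium channel gene Kcna5 fell by 0.04. The atrial transcription factors Nr2f1 and Nr2f2 did not pass. The list's median slope was 0.11, against 0.00 over all genes.

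Genes of neighbouring tissues moved with Myl7 as well. Of 6 sinus node genes tested, 3 rose, among them Cpne5 by 0.42 and Shox2 by 0.16, as did 5 of 5 adipose genes (median slope 0.33) and 4 of 5 mesothelial genes (median 0.23). Summed adipose markers ran from 0.0791 to 51.7 CPM and summed mesothelial markers from 2.97 to 39.5 CPM over the 75 libraries, none of the 10 markers was at 0 in every library, and their part in the members' levels was not tested. None of 7 ventricular genes and none of 5 red blood cell genes passed edgeR's test (1 and 0 at an unadjusted p under 0.05). Even so, the libraries highest in Myl7, M31, M26 and M27, were lowest in the ventricular genes Irx4 (17.8, 11.8 and 20.9 CPM) and Myl3 (2667, 2179 and 3096 CPM). These were males collected at 750 d. Library M8, with Myl7 at 671 CPM, had Irx4 at 40.1 CPM and Myl3 at 10723 CPM. Of 8 stress genes, Ccn2 rose by 0.07 per unit, while Acta1, skeletal alpha actin of the fetal program, fell by 0.24 and Myh7, the slow myosin heavy chain, fell by 0.08. Nppb had a slope of -0.05 (adjusted p = 0.493), unlike its neighbour Nppa.

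By correlation with the mean of the 5 members other than Nppa, the genes most alike were Mybphl (r = 0.983), Tmem163 (0.956), Fgf12 (0.943), Mlana (0.942), Hamp (0.937), Lmntd1 (0.934), Cilp2 (0.927), Gata5 (0.899), Rxfp1 (0.895) and Cacna2d2 (0.895), over 75 libraries that share preparation and sequencing. For Nppa alone the 10 were Tmem163 (0.899), Mybphl (0.898), Cilp2 (0.889), Fgf12 (0.869), Mlana (0.867), Cacna2d2 (0.867), Hamp (0.863), Rxfp1 (0.854), Cracd (0.834) and Lmntd1 (0.832). The lists differed in 1 gene, Gata5 against Cracd. None of the 8 stress genes was among them.

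Bmp10 departed from the Myl7 line in whole libraries, up or down. The SD about the line was 2.32 log2 units for Bmp10, 1.72 for Nppa, 1.18 for Dkk3, 0.66 for Sln and 0.54 for Myl4. Male gamma library M18 lay 4.94 log2 units above the Bmp10 line, F15 4.74, and the male 750 d libraries M27, M26 and M31 4.35, 4.08 and 3.97. These 5 are the libraries highest in Bmp10. In counts, M18 had 146 Bmp10 counts per 100 Myl7 counts, F15 had 94.1, M27 60.5, M26 41.8 and M31 36.8.

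Other libraries with high Myl7 had little Bmp10 for their Myl7 level. Male ND sham library M8 held 10457 Myl7 counts and 24 Bmp10 counts, or 0.23 per 100. Male gamma libraries M37, M39 and M38 held 19830, 9324 and 3837 Myl7 counts, and 1.19, 0.847 and 0.156 Bmp10 counts per 100. Bmp10 itself was above its median over the 75 libraries in M8 (1.54 CPM), M37 (10.9 CPM) and M39 (4.15 CPM), and below it in M38 (0.312 CPM). M38 and M18, with ratios of 0.156 and 146, were both male gamma libraries.

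**Figure D3:**
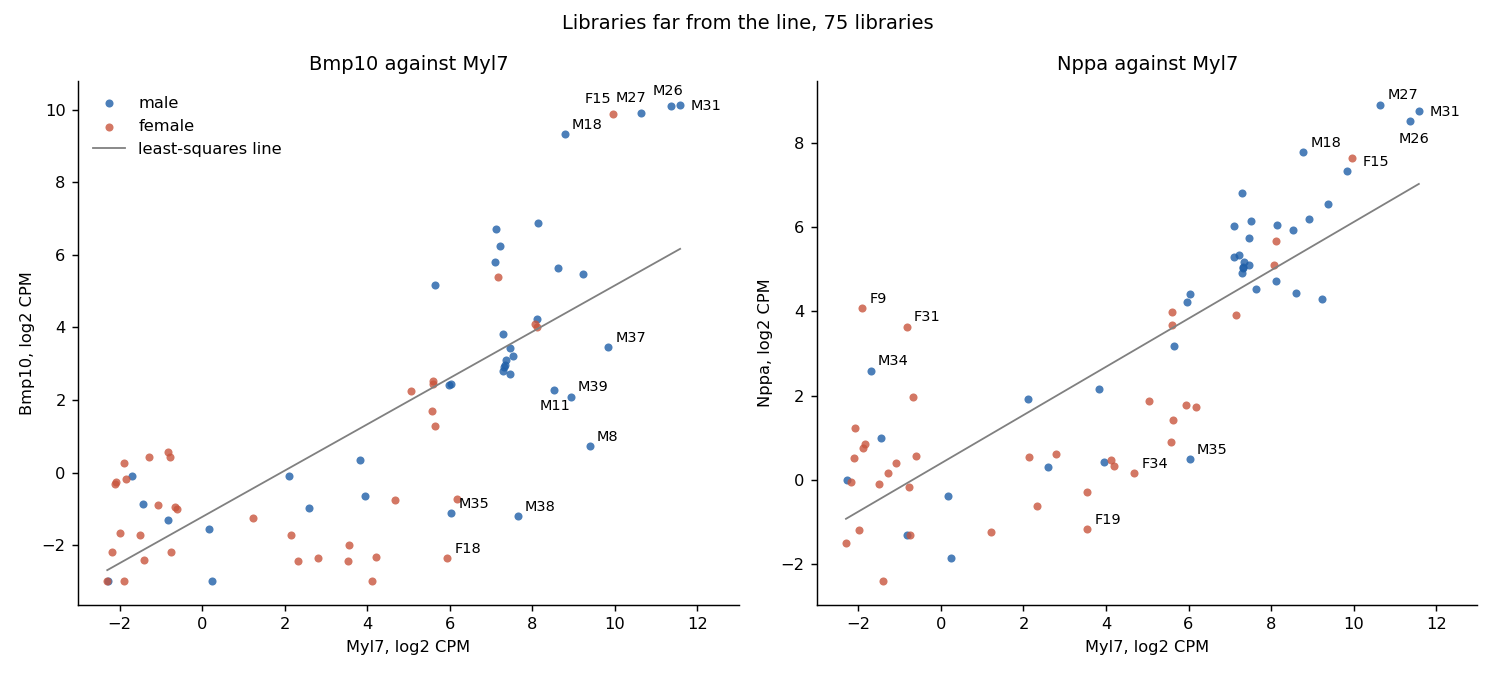
Bmp10 and Nppa (log2 CPM, vertical axes) against Myl7 (log2 CPM, horizontal axis) in 75 libraries, with the least-squares line and the libraries farthest from it named. M18 and F15 lie 4.94 and 4.74 log2 units above the Bmp10 line, and F9 lies 4.76 above the Nppa line.

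Nppa departed in another way, with reads in libraries where the trio was at its lowest. Female ND sham library F9 held 236 Nppa counts (16.6 CPM) beside 2 counts of Myl7 and 0 of Bmp10, 4.76 log2 units above the line. Female WD sham library F31 held 254 (12.3 CPM) beside 9 of Myl7, and male WD sham library M34 held 130 (5.90 CPM) beside 4 of Myl7, 3.72 and 3.17 above the line. Nppb, which ran from 2.48 to 2208 CPM over the 75 libraries (median 76.7), was at 130, 266 and 358 CPM in these 3. So each had Nppb above the median, with Myl7 nearly absent. Others with few Myl7 counts had high Nppb and little Nppa. Female gamma library F39 had Nppb at 597 CPM and Nppa at 1.36 CPM. The near-identical female WD sham libraries F32, F33 and F35 had Nppb at 332 to 353 CPM and Nppa at 0.767 to 1.57 CPM. Both were low in the near-identical female mix libraries F21 and F23 (Nppb 2.71 and 2.48 CPM, Nppa 0.0631 and 0.281 CPM). Below the line, male WD sham library M35 held 19 Nppa counts beside 969 of Myl7, a distance of -3.35, and female gamma library F19 lay at -3.59.

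At a given Myl7 level, per log2 unit of Nppa, 5 of 8 stress genes rose and none fell, where 9.19% of all genes tested passed in either direction. Nppb rose by 0.44 ± 0.09 (adjusted p = 0.00117), Ankrd1, a stretch-responsive cardiac ankyrin repeat protein, by 0.36 ± 0.05 (2.38e-06), and Myh7 by 0.21 ± 0.05 (0.00278). Ccn2, a matricellular growth factor, rose by 0.17 and Xirp2, an actin-binding protein of intercalated discs, by 0.09. Acta1 had a slope of 0.27 (adjusted p = 0.0797). Hence Nppb and Myh7, which did not rise with Myl7, rose with the part of Nppa that Myl7 does not follow. The count of stress genes was 4 to 6 of 8 in the alternatives run (DESeq2 6, near-identical libraries counted once 4, RIN as a covariate 5).

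That remaining part of Nppa went with atrial genes as well. Bmp10 rose by 0.97 ± 0.15 per unit (adjusted p = 1.99e-05), Dkk3 by 0.44 ± 0.06 (1.40e-06) and Myl4 by 0.20 ± 0.03 (1.51e-05), while Sln had a slope of 0.11 ± 0.05 (0.195). Of the 13 other atrial genes 5 rose (3 with RIN as a covariate), led by Cacna2d2 (0.43), Mybphl (0.33) and Sbk3 (0.30). Myl2 fell by 0.13 and Hey2, a transcriptional repressor of ventricular muscle, by 0.09. Of 9 natriuretic peptide genes tested, Nppb, the processing protease Furin (0.09) and the cGMP-dependent kinase Prkg1 (0.08) rose, and the receptors Npr1, Npr2 and Npr3 and the convertase Corin did not pass. Of 8 genes of BMP10 signalling, the inhibitory Smad7 and Smad6 rose by 0.14 and 0.11.

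A slope on Bmp10 at a given Myl7 level, chosen after seeing the data, gave another set, with 7% of all genes passing. Dkk3 rose by 0.31 ± 0.04, Nppa by 0.35 ± 0.07 (adjusted p = 9.39e-04) and Myl4 by 0.09 (0.0217), and Sln had a slope of 0.05 (0.339). Of the 13 other atrial genes 11 rose, Kcna5 not among them, and 7 did with DESeq2, 6 with no filter on counts and 5 with RIN as a covariate. No stress gene passed edgeR's test or DESeq2 (3 of 8 at an unadjusted p under 0.05 in edgeR), and Nppb had a slope of 0.21 (0.0653). Among the 8 genes of BMP10 signalling, Smad9 (0.11) and Smad7 (0.09) rose and the receptor gene Acvrl1 fell by 0.04. The stress list thus passed in 5 of 8 genes on Nppa and in 0 of 8 on Bmp10, and the difference between the slopes was not tested.

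**Figure D4:**
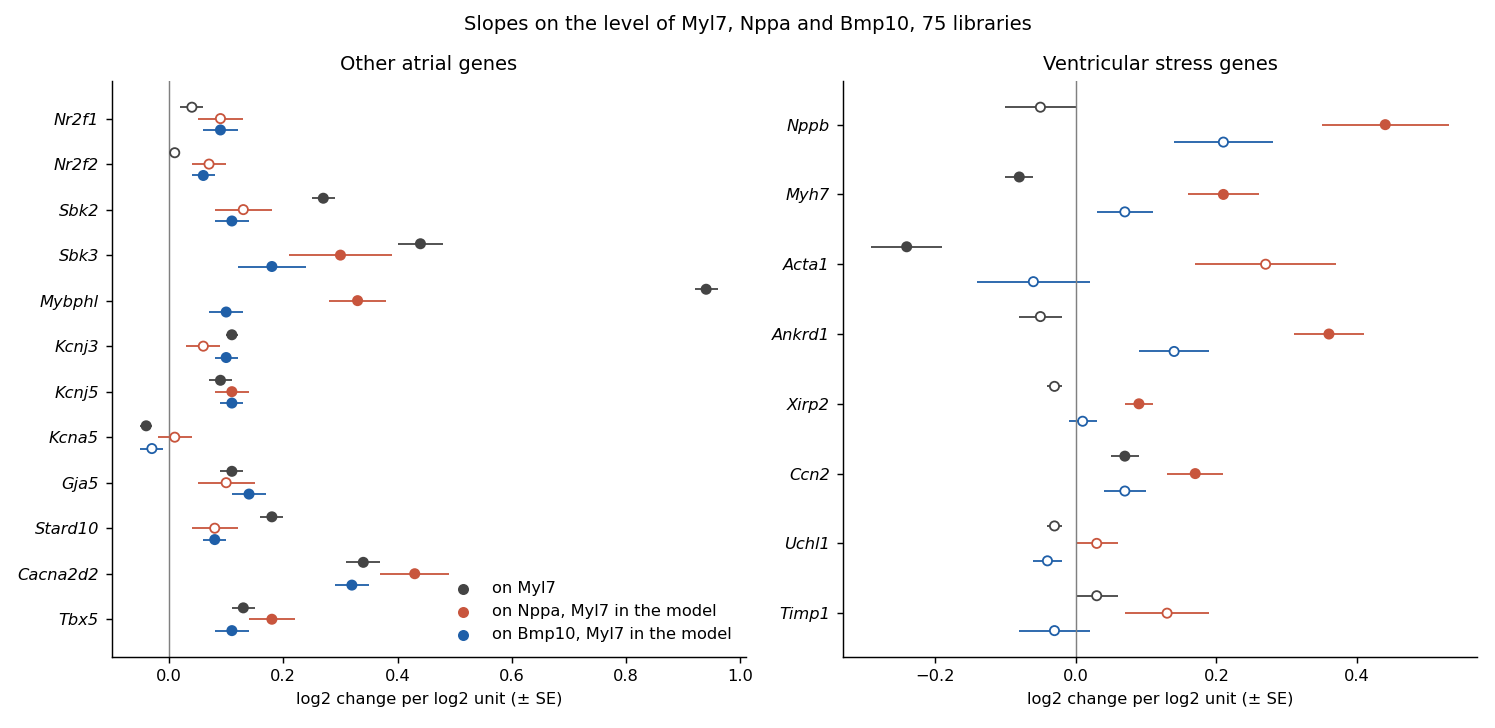
Slopes ± SE (log2 units per log2 unit, horizontal axis) of 12 of the 13 other atrial genes and of 8 stress genes on Myl7, on Nppa at a given Myl7 level and on Bmp10 at a given Myl7 level, fitted within groups over 75 libraries. Filled points passed edgeR's test at adjusted p under 0.05. Nppb lies at -0.05, 0.44 and 0.21.

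Diet moved none of the 6 members past the threshold in either sex. In males (10 against 10), log2 fold changes for WD against ND ran from -1.21 to -0.60 with SEs of 0.89 to 1.39, where 0% of all genes tested passed edgeR's test (404 genes and none of the members at an unadjusted p under 0.05; DESeq2 called 2 genes and no member). In females (10 against 9), Myl4, Myl7, Sln, Dkk3 and Nppa had 0.78 to 1.22, where 9.52% of genes passed. The sign of these 5 was not stable: they were at -1.69 to -0.29 with RIN as a covariate and at -1.77 to -0.31 without F15, and DESeq2 gave -0.33 for Dkk3 and -1.59 for Nppa. RIN was 4.1 to 7.6 in ND and 6.2 to 8.1 in WD females. At 640 d it was 4.1 to 6.0 on ND and 6.2 to 7.7 on WD. Fitted fold changes weigh the highest libraries: female Myl7 was at a mean log2 CPM of 2.13 on WD and 2.60 on ND, although its fitted change was 0.85 ± 1.40. Groups overlapped for every member.

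Female Bmp10 had the largest diet difference, 4.67 ± 1.61 (adjusted p = 0.0627), and its size rests on 1 library. Without F15 it was 0.60 (0.75), and with RIN as a covariate 1.66 (0.74). It passed with DESeq2 (3.35, 0.03), with collection age (4.38, 0.041) and with Myl7 as covariates (3.29, 0.03), and without F6 (5.55, 0.039) or F7 (5.38, 0.044). At 640 d, where F15 has no part, Bmp10 was at 0.418 to 1.35 CPM in WD females, or 6 to 28 counts. In ND females of that age it was at 0 to 0.391 CPM, or 0 to 7 counts. F32, F33 and F35 of these WD females, and F29 and F30 of these ND females, are near-identical sets. The difference between the sexes in the diet effect on Bmp10 was 5.58 ± 2.24 (adjusted p = 0.403), and 0 members passed that test with edgeR or DESeq2 (0.122% of genes passed, 1 member at an unadjusted p under 0.05).

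Both irradiated groups were set against the same ND sham mice of their sex, so the 2 comparisons share their controls. Sham mice pooled 2 collection ages and irradiated mice had no known age, so irradiation and age cannot be told apart here. In males, gamma against sham gave -1.31 to -0.43 for the 6 members, with none called by edgeR or DESeq2, or at an unadjusted p under 0.05, where edgeR called 28.4% of genes. Mix against sham gave -5.56 ± 1.60 for Bmp10 (adjusted p = 0.274), -3.25 ± 0.93 for Dkk3 (0.273) and -2.97 to -2.10 for the other 4, with 0% of genes passing (1414 genes and 5 members at an unadjusted p under 0.05). DESeq2 called 39 genes there, Bmp10 and Dkk3 among them (0.013 and 0.042).

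In females, gamma against sham gave -2.69 ± 0.93 for Nppa (adjusted p = 0.283) and -2.01 to -0.84 for the others, with 0% of genes passing (2020 genes and 1 member at an unadjusted p under 0.05; DESeq2 called 45 genes and no member, with Bmp10 at 2.37 in place of a negative value). Mix against sham gave -2.67 to -1.22, also with 0% passing (4034 genes and 4 members unadjusted, and 111 genes and no member with DESeq2, with Bmp10 at 2.97). With RIN as a covariate Nppa passed in that comparison, at -3.29 (0.023). Gamma against mix had no member called by either tool or at an unadjusted p under 0.05, where 0.0122% of genes were called by edgeR. Tests of whether the gamma or the mix effect differed between the sexes called 0 members with edgeR or DESeq2, and 2.78% and 0.0184% of genes (0 and 2 members at an unadjusted p under 0.05).

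Bmp10 and Dkk3 were the 2 of 6 members called higher in male gamma than in male mix mice. Bmp10 ran from 0.312 to 641 CPM in gamma (median 12.4, n = 10) and from 0 to 10.7 CPM in mix (median 5.29, n = 8), a log2 fold change of 4.31 ± 1.51 (adjusted p = 0.0297). Dkk3 ran from 5.77 to 391 CPM (median 136) and from 2.42 to 40.1 CPM (median 18), a change of 2.81 ± 0.91 (0.019). The ranges overlapped, and 32.5% of all genes passed, a share near that of the members (2 of 6). Myl4, Myl7, Sln and Nppa had 1.45 to 1.77 and did not pass. Of the other lists, 5 of 13 atrial genes, 4 of 6 sinus node genes, 4 of 5 adipose and 3 of 5 mesothelial genes were higher in gamma, and 3 of 7 ventricular genes were lower. Nppb had 0.11 ± 0.56 (0.89).

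RIN was 6.6 to 9.1 in the male gamma libraries and 4.5 to 8.5 in the male mix libraries. With RIN as a covariate neither gene passed (Bmp10 2.94, adjusted p = 0.6, and Dkk3 3.00, 0.29), and none of the other atrial or adipose genes did (1 atrial gene at an unadjusted p under 0.05). Summed adipose markers were at 0.778 to 50.7 CPM in gamma and 0.0791 to 9.07 in mix, and their part was not tested. DESeq2 gave Bmp10 2.69 (0.073), and Myl7 as a covariate 2.39 (0.086), while Dkk3 passed in both (2.73, 0.004 and 1.49, 0.019). Without M18, Bmp10 was at 2.84 (0.11), and without M23 or M25 at an adjusted p of 0.05, no longer under the threshold. Without M21, whose label conflicts with its near-identical libraries, Bmp10 had 4.43 (0.044) and Dkk3 2.99 (0.024).

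Older females had less RNA of all 6 members, and 2 of the 6, Bmp10 and Dkk3, were called higher in older males. For 640 d against 530 d females with diet in the model (10 against 9 libraries), the log2 fold change was -7.43 ± 1.51 for Bmp10 (adjusted p = 0.00175), -5.06 ± 1.21 for Sln (0.00469), -4.79 ± 1.26 for Myl7 (0.00824), -4.18 ± 1.07 for Myl4 (0.00714), -3.72 ± 0.92 for Nppa (0.00585) and -2.25 ± 0.64 for Dkk3 (0.0125), where 29.7% of genes passed. Myl7 was at 0.0763 to 277 CPM in the 4 ND females at 530 d, with 2 of 4 at or under 3 counts, and at 0.503 to 17.2 CPM in the 5 at 640 d. On WD it was at 0.0937 to 1000 CPM at 530 d and at 0.143 to 25.6 CPM at 640 d (5 each). All sham female libraries above 25.6 CPM were collected at 530 d, and low ones were found at both ages.

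Other atrial genes fell in 9 of 13 cases in the older females, among them Mybphl (-5.29 ± 1.18) and Sbk3 (-4.55 ± 0.82), and 4 of 5 adipose genes fell (median -2.49). All 5 red blood cell genes rose. Nppb rose by 1.58 ± 0.52 (adjusted p = 0.0278) while Nppa fell, and the stress genes Timp1 and Uchl1 rose by 1.04 and 0.70. RIN in ND females was 5.9 to 7.6 at 530 d and 4.1 to 6.0 at 640 d. With RIN as a covariate no member passed (Bmp10 -4.58, 0.085), nor any adipose gene (3 at an unadjusted p under 0.05), while 2 of 13 other atrial genes fell and 6 of 8 stress genes rose. With Myl7 as a covariate 1 member passed, and with near-identical libraries counted once Bmp10 alone of the members did. Nppb did not pass in either of these settings, while Timp1 and Uchl1 did. Counted once, 4 of 13 other atrial genes fell (8 at an unadjusted p under 0.05). No adipose gene passed there (4 of 5 at an unadjusted p under 0.05). Without F15, Bmp10 fell by 4.30, Dkk3 had -1.23 (0.053) and Nppa -2.21 (0.059).

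For 750 d against 530 d males (10 against 10), Bmp10 rose by 4.68 ± 1.26 (adjusted p = 0.00335) and Dkk3 by 2.26 ± 0.81 (0.0225), where 53.4% of genes passed, while Myl4, Myl7 and Nppa had 1.71 to 1.85 and, like Sln, did not pass. The members thus passed less often (2 of 6) than genes in general. Bmp10 was at 0.521 to 1100 CPM in ND and 0.215 to 1125 CPM in WD males at 750 d, and at 0.813 to 75.7 and 4.73 to 8.45 CPM at 530 d. Without M31, Bmp10 had 2.72 (0.079) and Dkk3 1.04 (0.39), and without M26 Dkk3 had 1.79 (0.05). Dkk3 did not pass with RIN as a covariate (2.12, 0.052) or with near-identical libraries counted once (2.32, 0.061), and Bmp10 had 2.10 (0.033) with Myl7 as a covariate. Of the lists, 4 of 13 other atrial genes were higher and 1 was lower in the older males, and 5 of 7 ventricular and 3 of 4 smooth muscle genes were lower. The older ages differ between the sexes, and whether the age effect differs by sex was not tested.

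Sham females had less RNA of 5 members than sham males (19 against 20, diet in the model), where 39.6% of genes passed. Myl4 had -2.65 ± 0.93 (adjusted p = 0.021), Myl7 -2.53 ± 1.01 (0.0425), Sln -2.50 ± 1.00 (0.0425), Nppa -2.26 ± 0.83 (0.0266) and Dkk3 -1.74 ± 0.69 (0.0425), and Bmp10 had -2.76 ± 1.53 (0.149). Of the other atrial genes 7 of 13 were lower in females, and Nppb had -0.91 ± 0.55 (0.191). That count was 9 with RIN as a covariate and 3 with near-identical libraries counted once. With Myl7 as a covariate 2 of the 13 were higher and 0 lower, and at 530 d alone 2 were higher and 2 lower. Myl7, Sln and Dkk3 passed in 24, 21 and 21 of the 39 fits that left out a library each. RIN was 3.6 to 7.3 in ND and 3.8 to 7.5 in WD sham males, and 4.1 to 7.6 and 6.2 to 8.1 in the females. With RIN as a covariate all 6 members passed, with larger differences: -6.67 for Bmp10 (adjusted p = 0.0014), -5.14 for Sln (0.0017), -4.86 for Myl7 (0.0029), -4.74 for Myl4 (0.0017) and Nppa (0.00014) and -2.96 for Dkk3 (0.0015). DESeq2 called all 6 as well (Bmp10 -3.43, 0.00054). With near-identical libraries counted once 2 passed, Myl4 and Nppa (Myl7 -2.86, 0.061), and with Myl7 as a covariate none did. At 530 d alone no member passed, with Myl7 at -0.32, Dkk3 at 0.54 and Bmp10 at 2.17. Without M31 no member passed (Myl7 -1.73, 0.21), and without F15 Bmp10 did (-5.10, 0.00044).

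All 6 members rose with RIN in 1 slope fitted over all 8 groups with group in the model, where 52.2% of genes passed. The slope was not fitted for each group, and it does not hold in all of them. Male mix libraries M1, M4 and M5, at RIN 7.7 to 8.5, had Myl7 at 0.0791 to 1.06 CPM. M21 to M25 of that group, at RIN 4.5 to 5.7, had Myl7 at 62.6 to 183 CPM. Per unit of RIN, Bmp10 rose by 1.45 ± 0.42, Sln by 1.04, Nppa by 0.98 ± 0.28, Myl7 by 0.96, Myl4 by 0.79 and Dkk3 by 0.48 log2 units. With near-identical libraries counted once only Bmp10 (1.33, adjusted p = 0.02) and Nppa (0.85, 0.025) passed, and with Myl7 as a covariate only Nppa (0.57, 0.0026). Of the other atrial genes 7 of 13 rose with RIN, and 3 of 7 ventricular genes and 4 of 5 red blood cell genes fell. The members' median slope was 0.97, against 0.03 over all genes.

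**Figure D5:**
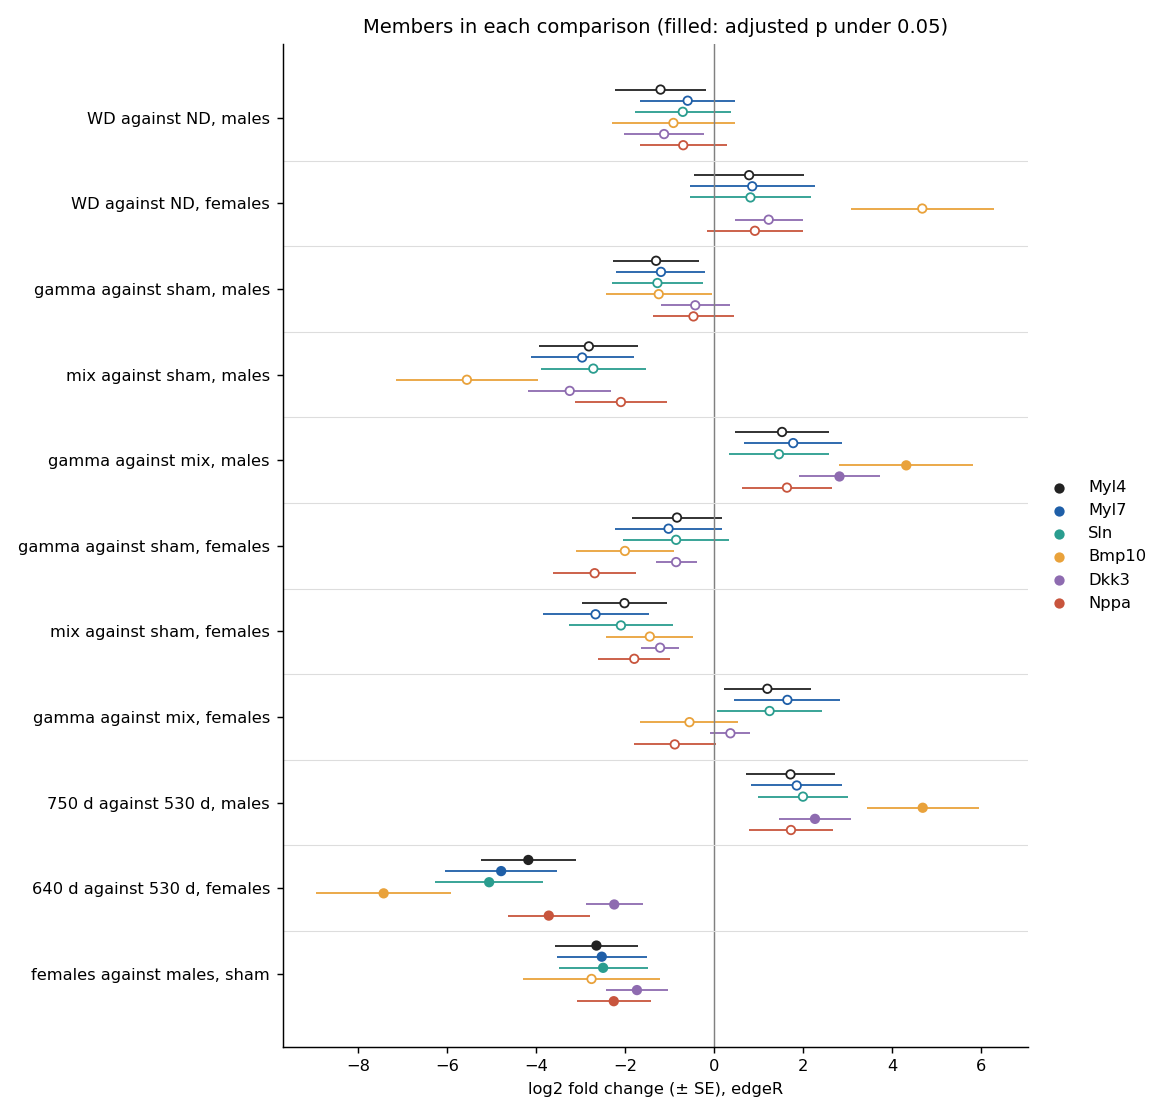
Log2 fold change ± SE (horizontal axis) of the 6 genes in 11 comparisons of diet, radiation field, collection age and sex. Filled points passed edgeR's test at adjusted p under 0.05: Bmp10 and Dkk3 for gamma against mix in males and for age in males, all 6 for age in females and 5 for sex.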

How the data were processed

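Right ventricular tissue was sequenced in 76 libraries, which the labels give as separate mice. Per the labels, the authors checked reads with FastQC 0.11.9 and aligned them with STAR 2.7.8a to GRCm39 (mm39). The deposited table holds raw counts per gene. Per the study, reads were counted over the 500 bases at each gene's 3′ end. Strand setting and annotation release are not given in the sources used here, and no column was without a sample.

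Genes kept by edgeR's filterByExpr over 8 label groups (16345) were tested with edgeR 4.0.16 (limma 3.58.1, R 4.3.3) by quasi-likelihood, with TMM scaling and Benjamini-Hochberg adjustment over all of them (threshold 0.05). Levels are TMM-scaled CPM or log2 CPM (prior count 2). The 3 ND groups of a sex shared a fit, diet was a covariate for age and sex, and group for slopes and RIN. Collection ages came from the study's sample table. Correlations used permutation tests (two-sided, 15 pairs, SciPy 1.17.1, NumPy 2.4.6). p-values measure the spread between libraries that the labels give as separate mice. Total counts (11426111 to 22009351) set the counting error.

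The members and the gene lists were chosen with earlier results of these data known. Named genes are the members, list genes where a list is counted, and the 10 genes most correlated with the mean of the 5 members other than Nppa and with Nppa. Libraries named singly were chosen after their values were seen, as was the limit of 5 on the mean chi-square that marks near-identical pairs. Alternatives were DESeq2 1.42.0 and its size factors, other filters, RIN, collection age or Myl7 as covariates, near-identical libraries counted once, 530 d libraries alone, and each library left out. Leaving out M21, leaving out libraries for age and sex, a block on the library number for the comparisons between sexes, and the slope on Bmp10 were chosen after seeing the data. Simulated data were used to test the code. Values of some single genes in the lists are not reported here.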

Additional observations from a re-analysis of the deposited data

Results flagged for a closer look

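Of 48 sets of values (6 genes in 8 groups) examined for a library far from the others of its group, 1 stood out by Dixon's test, and chance alone gives about 1 in 20. It was Dkk3 in male WD sham library M31, at 585 CPM, where the gap to the next library was 0.517 of the group's range against a critical value of 0.466 for 10 libraries. The same library held the highest Myl7 and Bmp10 of all 75 libraries, and its part in the age and sex comparisons is given with them. No member differed between the sexes in its response to diet or irradiation at adjusted p under 0.05 (edgeR and DESeq2).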

How the results depend on the processing

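The counts of members called are out of 6 unless given. For diet in females (0 called) collection age or Myl7 as a covariate and DESeq2 each gave 1, and leaving out each library gave 0 to 1. Mix against sham gave 2 with DESeq2 in males (0 called) and 1 with RIN as a covariate in females (0 called). For gamma against mix in males (2 called), RIN as a covariate gave 0, Myl7 as a covariate 1 of 5, DESeq2 1, and leaving out each library 1 to 2. For collection age in males (2 called), RIN as a covariate and near-identical libraries counted once each gave 1, and leaving out each library 0 to 2. In females (6 called), RIN as a covariate gave 0, Myl7 as a covariate 1 of 5, near-identical libraries counted once 1, and leaving out each library 4 to 6. For sex (5 called), RIN as a covariate and DESeq2 each gave 6, and no filter and near-identical libraries counted once each gave 2. Myl7 as a covariate and the 530 d libraries alone gave 0 for sex, and leaving out each library 0 to 6. For RIN (6 called), Myl7 as a covariate gave 1 and near-identical libraries counted once 2. Requiring over 20 counts in each library left 2 members to test, of which 1 was called for gamma against mix in males, 1 for age in males and 2 each for age in females, sex, RIN and the slope on Myl7. Of the single-gene values, 2282 kept their direction and side of the threshold, 107 no longer passed, 12 newly passed and 61 changed sign, none of which passed with the new sign. With Myl7 as a covariate the new values were 0.23 (Sln), 0.01 (Dkk3) and 0.25 (Nppa) for diet in males, -0.04 (Myl4) and -0.03 (Nppa) for diet in females, 0.12 (Myl4), 0.13 (Sln), 0.89 (Bmp10), 0.91 (Dkk3) and 0.88 (Nppa) for gamma against sham and 0.35 (Myl4), 0.45 (Sln) and 0.39 (Nppa) for mix against sham in males, and -0.24 (Myl4) and -0.32 (Sln) for gamma against mix in males. In females they were 0.30 (Sln) for gamma against sham, 0.20 (Myl4), 0.59 (Sln) and 1.05 (Bmp10) for mix against sham and -0.44 (Myl4), -0.29 (Sln) and -0.11 (Dkk3) for gamma against mix. The same covariate gave Sln -0.05 for age in males and -0.01 for RIN, Dkk3 0.24 for sex, Sln -0.23 and Nppa -0.20 for diet by sex, Myl4 -0.34 for gamma by sex and Nppa -1.05 for mix by sex. With RIN as a covariate diet in females turned to -1.11 (Myl4), -1.11 (Myl7), -1.19 (Sln), -0.29 (Dkk3) and -1.69 (Nppa), gamma against mix in females to 0.64 (Bmp10), gamma by sex to 1.73 (Bmp10) and 0.16 (Dkk3), and mix by sex to -0.61 (Myl7), -0.45 (Sln) and -1.06 (Nppa). DESeq2 gave -0.33 (Dkk3) and -1.59 (Nppa) for diet in females and, for Bmp10 in females, 2.37 for gamma and 2.97 for mix against sham. For sex at 530 d Bmp10 had 2.17 and Dkk3 0.54, and counting near-identical libraries once gave Dkk3 0.01 for gamma by sex. Leaving out each library gave -2.26 to 0.03 (Myl7) and -2.28 to 0.11 (Sln) for diet in males, -1.46 to 1.49 (Myl4), -1.52 to 1.60 (Myl7), -1.77 to 1.60 (Sln), -0.31 to 1.60 (Dkk3) and -1.58 to 1.63 (Nppa) for diet in females, -0.76 to 0.42 (Dkk3) and -0.80 to 0.25 (Nppa) for gamma against sham in males and -1.22 to 0.04 (Bmp10) for gamma against mix in females. All 15 correlations passed in every setting. Over all genes, RIN as a covariate took the calls from 1556 to 23 (diet, females), from 4635 to 0 (gamma against sham, males), from 5304 to 175 (gamma against mix, males), from 4855 to 970 (age, females), from 454 to 1 (gamma by sex), from 1502 to 951 (slope on Nppa) and from 1144 to 332 (slope on Bmp10). Counting near-identical libraries once gave 11 for diet in females, 1811 for age in females, 0 for gamma by sex and 1135 (of 1839) for the slope on Myl7. DESeq2 gave 2636 for diet in females and 1137 for gamma by sex, collection age as a covariate 3129 for diet in females, the 530 d libraries 9927 (against 6465) for sex, no filter 783 for diet in females, 94 for gamma by sex and 589 for the slope on Bmp10, and requiring over 20 counts 1192 for the slope on Myl7. The causes were not tested. Groups compared within a sex share no library number, so no pairing was possible there. Males and females share numbers, which name different mice. With that number as a replicate block, added after seeing the data, sex (19 pairs) again called 5 members, with Bmp10 at -3.49 (adjusted p = 0.032) in and Dkk3 at -1.26 (0.11) out, and 5930 genes in place of 6465. The block left 0 members called in the tests by sex, turned Bmp10 to 2.80 for gamma and Myl7 to -0.58, Sln to -0.00 and Nppa to -0.41 for mix, and called 15 genes for diet, 20 for gamma (454 without it) and 0 for mix (3 without it). Deviations of same-numbered libraries from their group means correlated over genes at -0.36 to 0.16 in sham (over 0.1 in 5 of 19 pairs) and -0.26 to 0.21 on ND (8 of 25), and 1 of 19 and 0 of 25 males were closest to the female of their own number, so by this check the numbers do not pair the mice. Bmp10 differences among libraries at or under the floor of 3 counts were not detectable at this depth.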

Other observations

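Female library F16, which the labels place in the Gamma field at 0 cGy and which entered no comparison, held Myl4 at 2507 CPM, Myl7 at 1452 CPM, Sln at 924 CPM, Bmp10 at 624 CPM, Dkk3 at 395 CPM and Nppa at 236 CPM, with a RIN of 6.2. Among grouped female libraries only F15 held more Bmp10, at 941 CPM. The genes most opposed to the members over 75 libraries were Ivns1abp (r = -0.627 with the mean of the 5 members other than Nppa) and Cuzd1 (r = -0.661 with Nppa).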
